A study of Mus musculus with 22 samples.

Results

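Klf2 and 3 receptor genes, S1pr1, S1pr4 and Ccr7, were followed across 4 groups of mouse memory T helper cells. These 4 genes are listed by name as egress and lymph node homing genes, out of 55291 gene names in each RNA-seq library, and they were chosen with their values in these libraries known. Their levels are therefore described here without any test. RNA was profiled from CD4+ T cells in 8 libraries, 2 in each of 4 groups. The group names place tissue ex-TRM and tissue ex-Tcirc cells in tissue, and circulating ex-TRM and circulating ex-Tcirc cells in circulation. TRM stands for tissue-resident memory and Tcirc for circulating memory cells. Tissue and circulation are used here in the sense of these names. A further 14 samples of the series were made by ATAC-seq and are not analysed here.

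All 8 RNA libraries carry the same labels for animals, which are female Balb/c hosts aged 6 to 10 weeks, with lung as the tissue. The design text describes effector Th2 cells, which make type 2 cytokines, from OT-II creERT2 or DO11.10 T cell receptor transgenic mice. These were given to recipients sensitized with ovalbumin, either C57BL/6 (Ly5.2) mice or BALB/c-nu/nu mice, the second of which lack T cells of their own. One experiment used tamoxifen and ended on day 49, with ex-TRM cells taken from blood and resident cells from lung. In the other, lung TRM and Tcirc cells of DO11.10 origin were moved into untreated BALB/c-nu/nu mice and examined on day 71, after ovalbumin had been given again. Which experiment gave the RNA libraries, whether circulating cells came from blood in all of them, and whether replicates were separate animals or pools are not stated. Tissue cells were sorted with CD69 among the markers, so that any difference between locations includes that gate.

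KLF2 is a zinc finger transcription factor that keeps lymphocytes quiescent and sustains transcription of S1pr1. S1PR1 is the receptor with which T cells sense sphingosine 1-phosphate, a lipid that is plentiful in blood and lymph and scarce inside tissue, and move towards the exit. CD69 binds S1PR1 and draws it from the cell surface. S1PR4 is a related receptor found mainly on blood and lymphoid cells. CCR7 responds to the chemokines CCL19 and CCL21 and directs cells into lymphatic vessels and lymph nodes.

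Promoter sequences, from 250 bases before to 50 bases after the annotated start (RefSeq, GRCm38.p6), were present for 2 of the 4 genes in the table used. Those of S1pr1 and Ccr7 were absent from it, and the 2 present, of Klf2 and S1pr4, are shown as a description. Klf2 lies at chr8:72319062-72321654 and S1pr4 at chr10:81497745-81500137. Capitals mark matches to the letters bound by KLF factors (CACCC, or GGGTG on the other strand) and to a MEF2-type pattern, CTA and TAG with any NNNN between them, each searched on both strands.
Klf2 promoter, chr8:72318812-72319111, plus strand: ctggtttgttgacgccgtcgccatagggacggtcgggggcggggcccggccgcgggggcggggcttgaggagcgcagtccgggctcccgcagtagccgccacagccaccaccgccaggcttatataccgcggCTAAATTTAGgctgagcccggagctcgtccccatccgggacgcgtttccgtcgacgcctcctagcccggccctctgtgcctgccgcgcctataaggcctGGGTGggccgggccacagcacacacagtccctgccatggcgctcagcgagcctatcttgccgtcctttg
S1pr4 promoter, chr10:81500088-81500387, minus strand: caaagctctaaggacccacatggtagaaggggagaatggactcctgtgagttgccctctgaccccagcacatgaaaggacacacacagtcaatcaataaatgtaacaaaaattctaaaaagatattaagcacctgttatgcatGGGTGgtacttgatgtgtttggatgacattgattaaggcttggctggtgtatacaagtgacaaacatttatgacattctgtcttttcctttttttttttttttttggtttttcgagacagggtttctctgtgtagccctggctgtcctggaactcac
The Klf2 sequence held CTAAATTTAG with its first base at position -118 from the start, and one GGGTG with its first base at position -19. The S1pr4 sequence held one GGGTG, with its first base at position -107. CACCC or its complement occurred in 57.5% of the 32851 promoters of the table, the MEF2-type pattern in 3.69%, and its form with AAAA between CTA and TAG, which neither promoter held, in 0.11%. The forkhead letters GTAAACA, which neither promoter held, occurred in 3.65%. The pattern with NNNN was added after the Klf2 sequence had been seen. GC made up 69.3% of the Klf2 promoter and 41.0% of that of S1pr4, against a median of 52.67% over all promoters.

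Detection was uneven between libraries. Gene names above 0 numbered 30488 to 37894 in the 4 tissue libraries, 29688 in the second circulating ex-TRM library, and 12785 and 7042 in circulating ex-Tcirc. Circulating ex-TRM replicate 1 had 917, listed all 4 genes at 0 along with all 12 T cell identity genes, and was treated as missing, which leaves circulating ex-TRM with 1 library. Values are FPKM, fragment counts corrected for gene length and for library size, and the read depth behind them is not given in the sources used here. Leaving out circulating ex-TRM replicate 1, the FPKM sum ran from 939087 in circulating ex-Tcirc replicate 2 to 1632198 in tissue ex-Tcirc replicate 2. Protein-coding genes made up 10.2% to 14.0% of the sum, so FPKM are not on a fully common scale. All 7 libraries used held transcripts of CD4 T cells. Cd4 was listed at 65.9 to 139 FPKM and Trac, a T cell receptor constant region, at 493 to 753 FPKM, whereas Cd8a reached 1.32 FPKM at most. Of the 12 T cell identity genes, 11 were above 0 in circulating ex-Tcirc replicate 1 and 9 in replicate 2. Cd3d was at 0 in both, and Lck and Cd5 were at 0 in replicate 2. Markers of other cell types are given below.

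Klf2 was far lower in tissue than in circulating cells, whatever their origin. It was listed at 31.0 and 28.4 FPKM in tissue ex-TRM and at 26.1 and 20.9 FPKM in tissue ex-Tcirc, against 174 FPKM in circulating ex-TRM and 183 and 159 FPKM in circulating ex-Tcirc. Every tissue library lay below every circulating library. The mean was 26.6 ± 4.30 FPKM in tissue (SD, n = 4) and 172 ± 12.2 FPKM in circulation (SD, n = 3), so that tissue cells held 15.4% of the circulating level. Among protein-coding genes above 0, Klf2 ranked between 1115 and 1805 in the tissue libraries and between 110 and 126 in the circulating ones. Such genes numbered 13081 to 16772 in tissue, 13174 in circulating ex-TRM, and 5974 and 3160 in circulating ex-Tcirc, so the ranks are not on 1 scale. The share of them below Klf2 was 87.7% to 92.5% in tissue and 96.5% to 99.0% in circulation.

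On the scale of log2(FPKM + 1), which is used for all log2 differences here, Klf2 differed by -2.67 ± 0.125 between tissue and circulation (SE from the spread within groups, 3 residual degrees of freedom). The difference was -2.52 ± 0.19 within ex-TRM and -2.82 ± 0.16 within ex-Tcirc, and these differed from each other by 0.31 ± 0.25. In descending order, Klf2 stood at 174 FPKM in circulating ex-TRM (1 library), 171 ± 17.0 FPKM in circulating ex-Tcirc, 29.7 ± 1.80 FPKM in tissue ex-TRM and 23.5 ± 3.68 FPKM in tissue ex-Tcirc (SD, n = 2 each). The circulating origins did not differ beyond their spread, since the ex-TRM value fell between those of ex-Tcirc. In bulk samples, fewer cells with the transcript and less transcript per cell cannot be told apart.

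**Figure D1:**
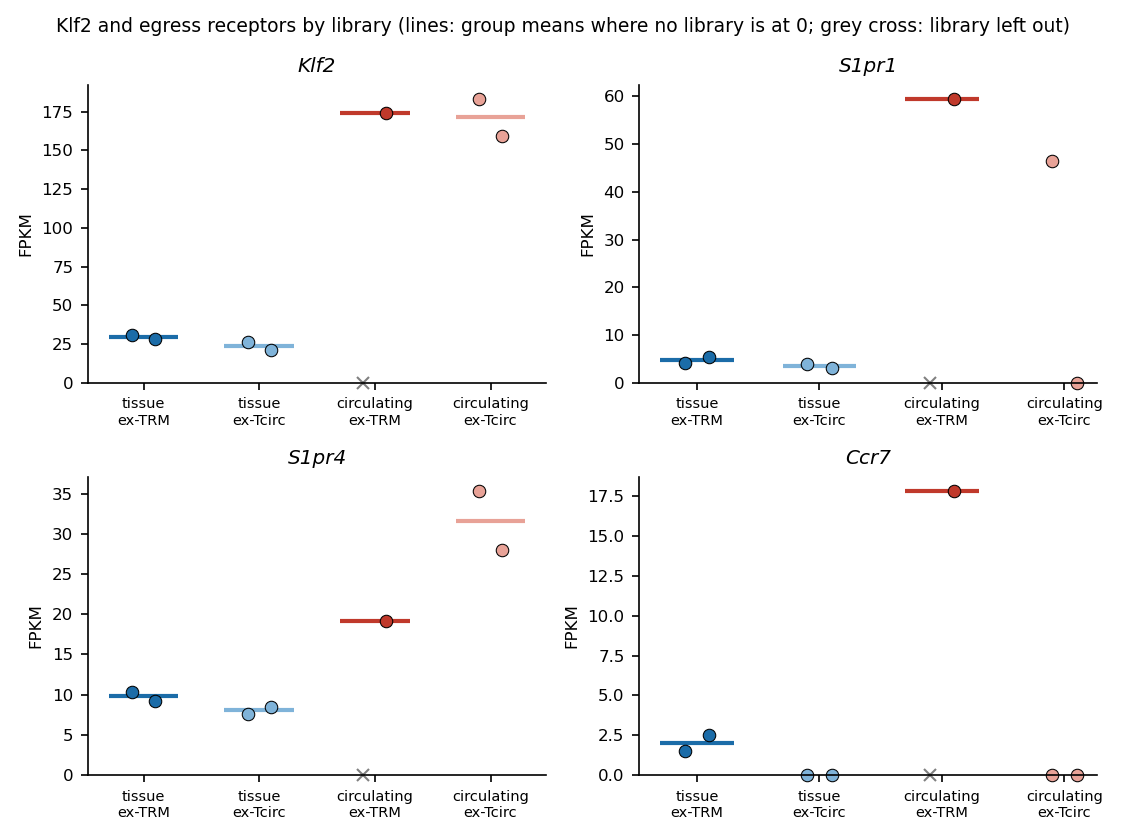
FPKM of Klf2, S1pr1, S1pr4 and Ccr7 in each library (points), by group from tissue ex-TRM at the left to circulating ex-Tcirc at the right; horizontal lines are group means where no library of the group is at 0, and grey crosses mark circulating ex-TRM replicate 1, which was left out. Klf2 lies between 20.9 and 31.0 FPKM in tissue and between 159 and 183 FPKM in circulation, and S1pr1 is at 0 in circulating ex-Tcirc replicate 2.

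S1pr1 (chr3:115710433-115715055) was low in all tissue libraries and high in those circulating libraries that detected it. It was listed at 4.16 and 5.34 FPKM in tissue ex-TRM and 3.83 and 2.99 FPKM in tissue ex-Tcirc, against 59.5 FPKM in circulating ex-TRM and 46.4 and 0 FPKM in circulating ex-Tcirc. The groups overlapped through this 0 alone. Tissue ex-TRM cells held 7.98% of the S1pr1 level of the circulating ex-TRM library. The log2 difference between tissue and circulation was -2.03 ± 1.80 (SE), little larger than its SE. It became -3.42 ± 0.176 without circulating ex-Tcirc replicate 2 and -0.63 without replicate 1 of that group. Within ex-Tcirc it was -0.65 ± 2.28, -3.43 without circulating replicate 2 and 2.13 without circulating replicate 1.

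The 0 in circulating ex-Tcirc replicate 2 stood beside many others at that level of expression. Of 618 protein-coding genes within 1.5-fold of the 59.5 FPKM of S1pr1 in circulating ex-TRM replicate 2, 54.05% had a value of 0 in circulating ex-Tcirc replicate 2. In replicate 1 of that group this share was 9.87%, and in the tissue libraries it was at most 0.32%. A value of 0 in that library therefore cannot be read as absence of S1pr1, and 4 of 12 housekeeping genes were listed at 0 there too. Klf2 and S1pr4 were above 0 in it.

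S1pr4 (the second promoter printed above) was lower in tissue as well, by less than Klf2. It was listed at 10.4 and 9.17 FPKM in tissue ex-TRM and 7.58 and 8.47 FPKM in tissue ex-Tcirc, against 19.1 FPKM in circulating ex-TRM and 35.3 and 27.97 FPKM in circulating ex-Tcirc. No tissue library overlapped with a circulating one, and circulating ex-TRM lay between the tissue cells and circulating ex-Tcirc. The mean was 8.90 ± 1.18 FPKM in tissue (SD, n = 4) and 27.5 ± 8.10 FPKM in circulation (SD, n = 3), or 32.4% of the circulating level. The log2 difference was -1.38 ± 0.126 (SE). It was -0.91 ± 0.20 within ex-TRM and -1.85 ± 0.16 within ex-Tcirc, and the difference between these was 0.94 ± 0.25, a contrast that rests on the single circulating ex-TRM library.

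Ccr7 (chr11:99144199-99155077) was detected in 3 of the 7 libraries, all of them ex-TRM. It was listed at 1.503 and 2.48 FPKM in tissue ex-TRM, at 0 in both tissue ex-Tcirc libraries, at 17.8 FPKM in circulating ex-TRM and at 0 in both circulating ex-Tcirc libraries. Within ex-TRM, tissue cells held 11.2% of the level of the circulating library, and ex-Tcirc cells of both locations were at 0. Of 2128 protein-coding genes within 1.5-fold of 17.8 FPKM in circulating ex-TRM replicate 2, 41.45% and 70.91% were at 0 in the circulating ex-Tcirc libraries, so Ccr7 at that level could have been missed there. In tissue ex-Tcirc the same shares were 4.23% and 0.42%. They hold for genes near 17.8 FPKM only. Detection at the 1.503 and 2.48 FPKM of tissue ex-TRM was not examined, so the zeros of tissue ex-Tcirc are not read as absence.

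Of the 4 genes, 2 had every tissue library below every circulating library, namely Klf2 and S1pr4. The same pattern was found in 11.8% of the 2656 genes with a mean of at least 20 FPKM and in 2.33% of the 28325 genes with at least 1 FPKM in at least 2 libraries. Nothing is read from the count, since the genes were picked for this contrast. Klf2 alone of the 4 passed the minimum mean of 20 FPKM.

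Origin made less difference than location to Klf2 and S1pr4 in tissue. In all 4 genes both tissue ex-TRM libraries lay above both tissue ex-Tcirc libraries, which also held for 40.4% of the genes with a mean of at least 20 FPKM and 21.8% of those with at least 1 FPKM in at least 2 libraries. The log2 difference between tissue ex-TRM and tissue ex-Tcirc was 0.33 ± 0.16 for Klf2 and 0.25 ± 0.16 for S1pr4 (SE). For S1pr1 it was 0.38 ± 2.28, where the SE carries the 0 of the circulating library. Between circulating ex-TRM and circulating ex-Tcirc the log2 difference was 0.03 ± 0.19 for Klf2 and -0.69 ± 0.20 for S1pr4.

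T cell identity genes had positive differences between tissue ex-TRM and tissue ex-Tcirc as well, in 11 of 11 tested, and none was called (limma, 0 with an unadjusted p under 0.05). The geometric mean of the 9 T cell genes above 0 in all 7 libraries was 301 and 296 FPKM in tissue ex-TRM, 209 and 267 FPKM in tissue ex-Tcirc, 315 FPKM in circulating ex-TRM and 247 and 259 FPKM in circulating ex-Tcirc. Expressed as a percentage of that mean, Klf2 was at 10.3% and 9.59% in tissue ex-TRM and at 12.5% and 7.81% in tissue ex-Tcirc, against 55.3% in circulating ex-TRM and 74.3% and 61.4% in circulating ex-Tcirc. The tissue origins overlapped on this scale, and the locations stayed apart.

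S1pr4 relative to the T cell genes was at 3.45% and 3.09% in tissue ex-TRM and 3.62% and 3.17% in tissue ex-Tcirc, against 6.07% in circulating ex-TRM and 14.3% and 10.8% in circulating ex-Tcirc. Its tissue origins overlapped too, with a log2 difference of -0.05 ± 0.19 on this scale. S1pr1 was at 1.12% to 1.83% in the 4 tissue libraries, against 18.9% in circulating ex-TRM and 18.8% and 0% in circulating ex-Tcirc. The 2 circulating libraries that detected S1pr1 thus had nearly equal levels of it for their T cell content.

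**Figure D2:**
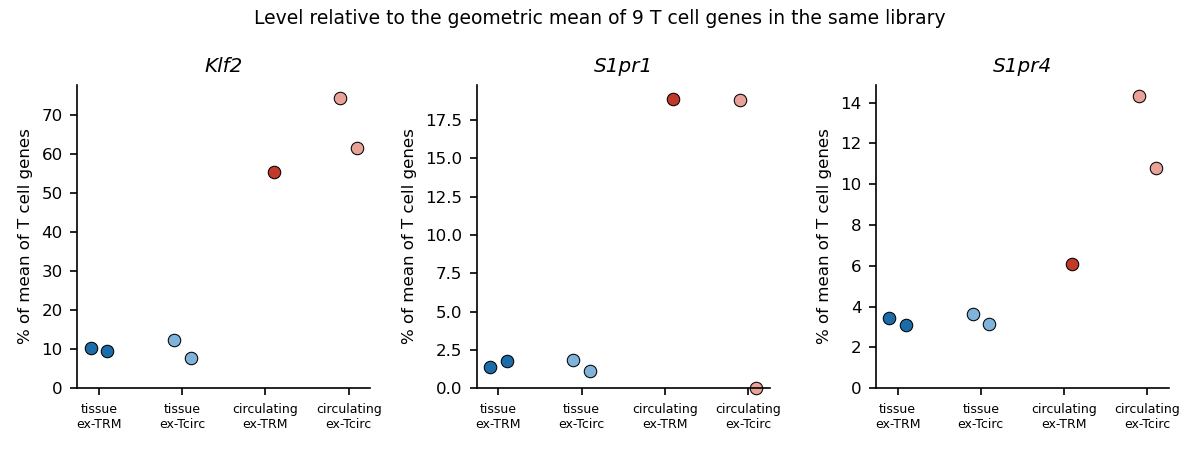
Level of Klf2, S1pr1 and S1pr4 as a percentage of the geometric mean FPKM of 9 T cell genes in the same library, 1 point per library, by group. Klf2 lies between 7.81% and 12.5% in tissue and between 55.3% and 74.3% in circulation, and the tissue ex-TRM and tissue ex-Tcirc points overlap for all 3 genes.

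The other genes of the pathway were read from a fit across all genes. Over the 2656 genes with a mean of at least 20 FPKM, limma with Benjamini-Hochberg adjustment called 195 genes (7.34%) between tissue and circulation at an adjusted p under 0.05, 174 higher in tissue (6.55%) and 21 lower (0.791%). Of the 174, 156 were at 0 in both circulating ex-Tcirc libraries, which have the fewest genes detected. Of 77 listed genes of egress, homing and retention other than the 4, 21 were tested. Of these 21, 3 had every tissue library below every circulating one, as did 11.8% of the 2656 genes. Of the 77, 8 had every tissue library above every circulating one, a pattern whose share over all genes is not given here. Nothing is read from either count. Cxcr6 was called higher in tissue, and none was called lower, with 4 of the 21 at an unadjusted p under 0.05. The median log2 difference of the 21 was 0.31, beside 0.43 over all genes tested. In the other comparisons of the same fit, Cxcr6 was again the one listed gene called within ex-Tcirc, where 9.11% of all genes were called, and between the circulating origins, where 6.63% were. None of the 21 was called for the interaction of location and origin, where 0.151% of all genes were and 1 of the 21 had an unadjusted p under 0.05, nor within ex-TRM, where limma called 0 genes and 87 had an unadjusted p under 0.05.

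**Figure D3:**
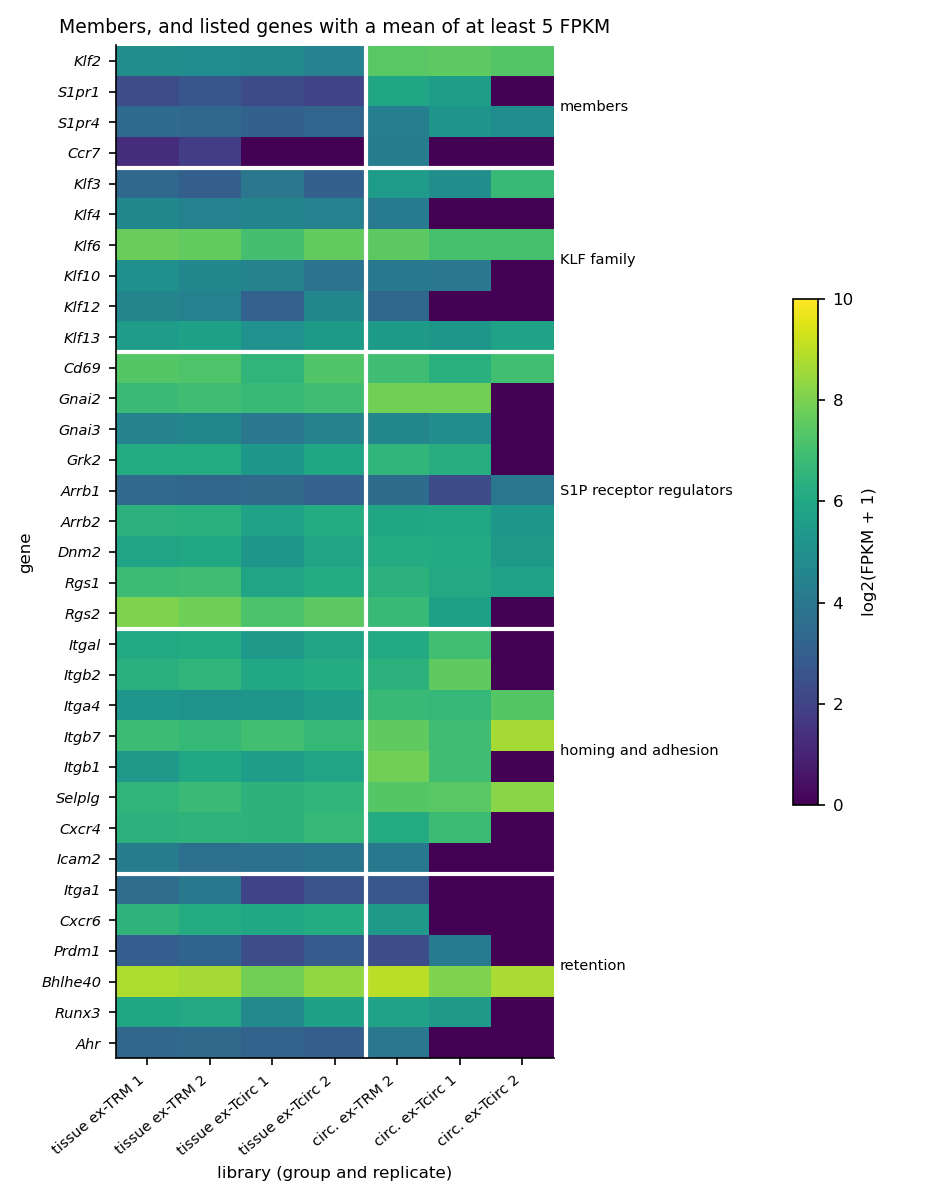
Colour gives log2(FPKM + 1) of the 4 genes and of listed genes with a mean of at least 5 FPKM in the 7 libraries, with tissue libraries left of the white line and circulating libraries right of it, and genes grouped by role. Klf3, Itga4 and Selplg share the pattern of Klf2 and S1pr4, lower in every tissue library, which 11.8% of the 2656 genes tested also had. Dark cells in the last column are genes listed at 0 in circulating ex-Tcirc replicate 2.

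Among the 16 other KLF factors, 3 were tested and none was called (limma, 1 with an unadjusted p under 0.05). Klf3, which encodes a repressor that binds the same CACCC letters, shared the direction of Klf2. It was listed at 9.40 and 7.08 FPKM in tissue ex-TRM and 14.8 and 7.67 FPKM in tissue ex-Tcirc, against 44.1 FPKM in circulating ex-TRM and 29.4 and 106 FPKM in circulating ex-Tcirc. All tissue values lay below all circulating ones, and the log2 difference was -2.29 ± 0.62 (SE; limma adjusted p = 0.152). Without circulating ex-Tcirc replicate 1 it was -2.75 (limma adjusted p = 0.00168), in a fit that called 69.5% of all genes tested, with 17.5% of those tested called lower in tissue.

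Klf6 and Klf13 were abundant in all libraries and did not pass the test. Klf6, an immediate early gene, was at 210, 194, 133 and 193 FPKM in tissue and at 178, 136 and 137 FPKM in circulation (log2 difference 0.21 ± 0.22, limma adjusted p = 0.718). Klf13 was at 32.2 to 51.7 FPKM in tissue and 38.1 to 52.5 FPKM in circulation (log2 difference -0.03 ± 0.27, limma adjusted p = 0.949). Their ranges overlapped between locations, unlike that of Klf2. Klf4, another factor that restrains T cell proliferation, was at 19.9 to 24.7 FPKM in tissue, 16.2 FPKM in circulating ex-TRM and 0 in both circulating ex-Tcirc libraries. Klf10 was at 12.8 to 31.3 FPKM in tissue, 15.5 FPKM in circulating ex-TRM, and 14.6 and 0 FPKM in circulating ex-Tcirc, and Klf12 was at 7.88 to 23.1 FPKM in tissue, 9.15 FPKM in circulating ex-TRM and 0 in both circulating ex-Tcirc libraries. At the lower minimum of 1 FPKM in 2 libraries, where 12.8% of 28325 genes were called, Klf4 and Klf12 were called higher in tissue, as were 12.5% of all genes. Of the 12 other KLF genes tested at that minimum none was called lower, beside 0.251% of all genes.

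Of the genes that act upstream of Klf2, 1 of 14 was tested, Mef2d, and it was not called. Foxo1, a factor that promotes Klf2 transcription in T cells, was listed at 9.31 and 9.83 FPKM in tissue ex-TRM and 6.05 and 6.97 FPKM in tissue ex-Tcirc, against 13.4 FPKM in circulating ex-TRM and 25.0 and 3.07 FPKM in circulating ex-Tcirc. The circulating values spanned the tissue range. Mef2a, a transcription factor of the MEF2 family, was at 12.8 to 13.8 FPKM in tissue and 13.3 to 24.9 FPKM in circulation, and Mef2d was at 46.7 to 56.8 FPKM in tissue, against 48.7, 36.3 and 0 FPKM in circulation.

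No other S1P receptor was tested, since all fell below the minimum. S1pr2, which opposes migration towards S1P, was at 1.96 to 4.21 FPKM in tissue, 0.857 FPKM in circulating ex-TRM and 0 in both circulating ex-Tcirc libraries. S1pr3 reached 2.16 FPKM at most, and S1pr5 was listed at 0 in all libraries. The S1P receptors detected in circulating cells were thus mainly S1pr1 and S1pr4.

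None of the 7 tested regulators of S1P receptors was called (limma, 0 with an unadjusted p under 0.05), and 6 of the 7 had positive differences. Cd69 overlapped between locations, at 162, 150, 92.8 and 156 FPKM in tissue and 120, 81.2 and 125 FPKM in circulation (log2 difference 0.31 ± 0.31, limma adjusted p = 0.704). Gnai2, the inhibitory G protein subunit through which S1PR1 signals, was at 108 to 122 FPKM in tissue, against 230, 231 and 0 FPKM in circulation. Rgs1, which dampens such signalling, was at 114 and 122 FPKM in tissue ex-TRM and 56.7 and 70.8 FPKM in tissue ex-Tcirc, a log2 difference of 0.88 ± 0.27 that did not pass (limma adjusted p = 1, unadjusted p = 0.0287). Between tissue ex-TRM and tissue ex-Tcirc limma called no gene of 2656, and 7 had an unadjusted p under 0.05.

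Adhesion receptors of the homing list were mixed. Itga4, the alpha 4 integrin chain with which T cells attach to vessel walls, was at 37.6 and 34.6 FPKM in tissue ex-TRM and 38.0 and 46.5 FPKM in tissue ex-Tcirc, against 106 FPKM in circulating ex-TRM and 101 and 164 FPKM in circulating ex-Tcirc. The locations did not overlap, and the log2 difference of -1.56 ± 0.28 just missed the threshold (limma adjusted p = 0.0549). It passed at lower minimums, with an adjusted p of 0.0421 at 1 FPKM in 2 libraries, and without either circulating ex-Tcirc library (0.000887 without replicate 1, 0.00293 without replicate 2, limma). Those fits called many genes, 69.5% of all tested without replicate 1 and 42.2% without replicate 2, with 17.5% and 20.1% called lower in tissue. Selplg, the ligand through which cells roll on selectins, was at 88.2 to 111 FPKM in tissue, against 163, 175 and 301 FPKM in circulation (log2 difference -0.998 ± 0.28, limma adjusted p = 0.162). Without circulating ex-Tcirc replicate 1 its difference was -1.19 (limma adjusted p = 0.00238), and without replicate 2 it was -0.80 (limma adjusted p = 0.0183), in the same fits with 69.5% and 42.2% of all genes called.

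Itgb7, the partner chain of the alpha 4 integrin, was at 101 to 125 FPKM in tissue, against 189, 122 and 399 FPKM in circulation. One circulating value lay within the tissue range, and the difference of -0.88 ± 0.50 did not pass (limma adjusted p = 0.471). Without circulating ex-Tcirc replicate 1 it was -1.30 (limma adjusted p = 0.00217), again with 69.5% of all genes called. Itgb1, Itgal, Itgb2 and Cxcr4 each had a value of 0 in circulating ex-Tcirc replicate 2. Elsewhere Itgb1 was at 42.0 to 61.4 FPKM in tissue, against 233 and 121 FPKM in circulation, Itgal at 40.3 to 70.2 FPKM in tissue and 68.6 and 125 FPKM in circulation, and Itgb2 at 60.7 to 91.1 FPKM in tissue and 84.7 and 185 FPKM in circulation. Cxcr4 was at 84.7 to 104 FPKM in tissue, against 70.7 and 115 FPKM in circulation. Icam2 was at 11.7 to 17.7 FPKM in tissue, 15.3 FPKM in circulating ex-TRM and 0 in both circulating ex-Tcirc libraries.

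Of the retention list, 5 of 12 genes were tested and 1 was called. Cxcr6, which encodes a chemokine receptor known from resident memory cells, was listed at 88.8 and 70.4 FPKM in tissue ex-TRM and 60.7 and 72.7 FPKM in tissue ex-Tcirc, against 41.0 FPKM in circulating ex-TRM and 0 in both circulating ex-Tcirc libraries (limma adjusted p = 0.0239). Every tissue library lay above every circulating one, the reverse of Klf2, and no fold is given because of the zeros. The call was lost without any one tissue library, with adjusted p values between 0.128 and 0.385 (limma). Other settings that lost it included TPM scaling, library weights, location as the only term and all 8 libraries, at adjusted p values of 0.05 to 0.369 (limma). Genes that make, degrade or export S1P were all below the minimum, and Ccl19 and Ccl21a, the ligands of CCR7, reached 0.212 FPKM at most.

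The genes most like Klf2 were found by the Pearson correlation of log2(FPKM + 1) over 7 libraries among 1965 genes. The points share their libraries, depth and the split by location, so the values are a description without a test. S1pr4 correlated with Klf2 at 0.951, Itga4 at 0.928, Klf3 at 0.878 and Selplg at 0.871. S1pr1 correlated at 0.425, Ccr7 at 0.252 and Cd69 at -0.51. In the 6 libraries with S1pr1 above 0, it was lower in every tissue library than in every circulating one, as Klf2 was.

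The 10 highest were H1f1 (0.998), S100a11 (0.986), Myo1f (0.975), H2bc3 (0.973), H1f2 (0.972), Flna (0.964), Mxd1 (0.963), H4c4 (0.962), H2ac20 (0.958) and Tcf7 (0.956). H1f1, a linker histone gene, was at 4.14 to 5.71 FPKM in tissue and 41.6 to 50.6 FPKM in circulation. Replication-dependent histone genes made up 5 of the 10. S100a11 was at 78.8 to 84.0 FPKM in tissue and 145 to 155 FPKM in circulation. Tcf7 encodes a transcription factor of central memory T cells. The 5 lowest were Ecm1 (-0.980), Snord8 (-0.967), Peak1 (-0.956), Phip (-0.947) and Snora68 (-0.947). Ecm1, a secreted protein that Th2 cells make and that is known to promote their exit from lymph nodes through S1PR1, was at 54.6 to 64.9 FPKM in tissue and 16.8 to 25.1 FPKM in circulation, the reverse of Klf2.

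Among the genes most like S1pr1, by the same rule over 1966 genes, were Hmgb2 (0.978), H2bc8 (0.977), H2bc13 (0.974) and Mki67 (0.971). All 4 had their lowest value in circulating ex-Tcirc replicate 2, the library in which S1pr1 was at 0. Mki67, a gene of dividing cells, was at 3.65 to 8.04 FPKM in tissue, 45.0 FPKM in circulating ex-TRM, and 71.3 and 0 FPKM in circulating ex-Tcirc.

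Klf2 is also strongly expressed in endothelial cells and in resting B cells, and markers of other cell types were read beside it. Endothelial markers, 10 genes, summed to 17.0 to 41.8 FPKM in tissue and to 29.9, 60.5 and 8.51 FPKM in circulation. Of the 60.5 FPKM in circulating ex-Tcirc replicate 1, 52.3 was Pecam1, which T cells also express, and 8.14 was Cldn5, a tight junction gene of endothelium, at its highest of the 7 libraries. The other 8 endothelial markers were listed at 0 in that library. B cell markers, 7 genes, summed to 20.7 to 395 FPKM in tissue and to 37.2, 257 and 0 FPKM in circulation, mostly as immunoglobulin transcripts, and Cd79a and Cd79b were at 0 in all libraries. Their part in the Klf2 levels was not tested.

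Myeloid markers, 7 genes, summed to 41.0 to 154 FPKM in tissue and to 65.1, 727 and 308 FPKM in circulation, mainly as Lyz2. Epithelial markers, 6 genes, summed to 11.1 to 87.2 FPKM in tissue and to 28.1, 529 and 0 FPKM in circulation. In circulating ex-Tcirc replicate 1, Sftpc was at 421 FPKM, Scgb1a1 at 73.9 FPKM and Ager at 34.5 FPKM. Both sums were highest in circulating ex-Tcirc replicate 1, and their part in the results was not tested. In circulating ex-TRM replicate 2, where Klf2 stood at 174 FPKM, the sums of endothelial, B cell, myeloid and epithelial markers all lay within the range of the tissue libraries. The top of each range was tissue ex-Tcirc replicate 1. Without it, the B cell and myeloid sums still lay within the range. The endothelial and epithelial sums, 29.9 and 28.1 FPKM, lay above the other tissue libraries, which reached 17.5 and 18.8 FPKM. Their part in the Klf2 level was not tested. Dendritic cell markers reached 25.0 FPKM in sum, NK cell markers 9.26 FPKM, neutrophil markers 5.18 FPKM and fibroblast markers 34.6 FPKM, each highest in tissue ex-Tcirc replicate 1.

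Immediate early genes, which are induced when cells are handled at warm temperature as well as by activation, had a larger sum in every tissue library than in any circulating one. The 17 genes summed to 2798 to 4275 FPKM in tissue and to 2769, 2611 and 2468 FPKM in circulation. Of 15 tested, 14 had positive differences with a median of 0.28, beside 0.43 over all genes, and none was called (limma, 2 with an unadjusted p under 0.05). Their part in the Klf2 difference was not tested.

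**Figure D4:**
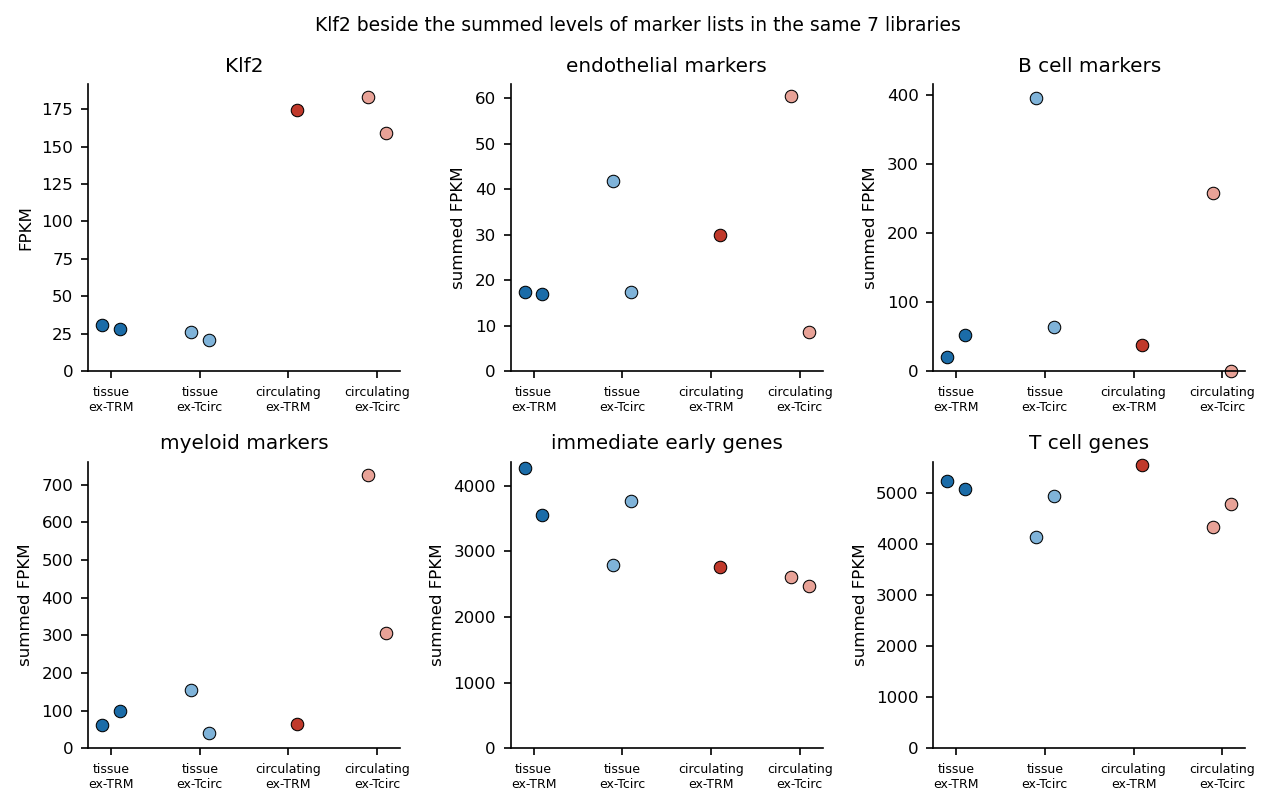
FPKM of Klf2 and the summed FPKM of marker lists in each of the 7 libraries, by group. Klf2 separates tissue from circulation, whereas sums of endothelial, B cell and T cell markers overlap between locations, and the myeloid sum is highest, at 727 FPKM, in circulating ex-Tcirc replicate 1.

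Every tissue value of Klf2 and S1pr4 lay below every circulating one, so leaving out 1 library could not turn the direction. Their size moved little. Leaving out each of the 6 libraries that could be left out gave -2.75 to -2.59 for Klf2 and -1.46 to -1.30 for S1pr4. Rescaling the libraries by their sum, by protein-coding genes, by median of ratios or by T cell genes gave values from -2.86 to -2.47 for Klf2. With all 8 libraries, so with circulating ex-TRM replicate 1 and its zeros, the differences were -0.80 for Klf2 and -0.29 for S1pr4. The other circulating ex-TRM library could not be left out, since it is the only one of its group.

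**Figure D5:**
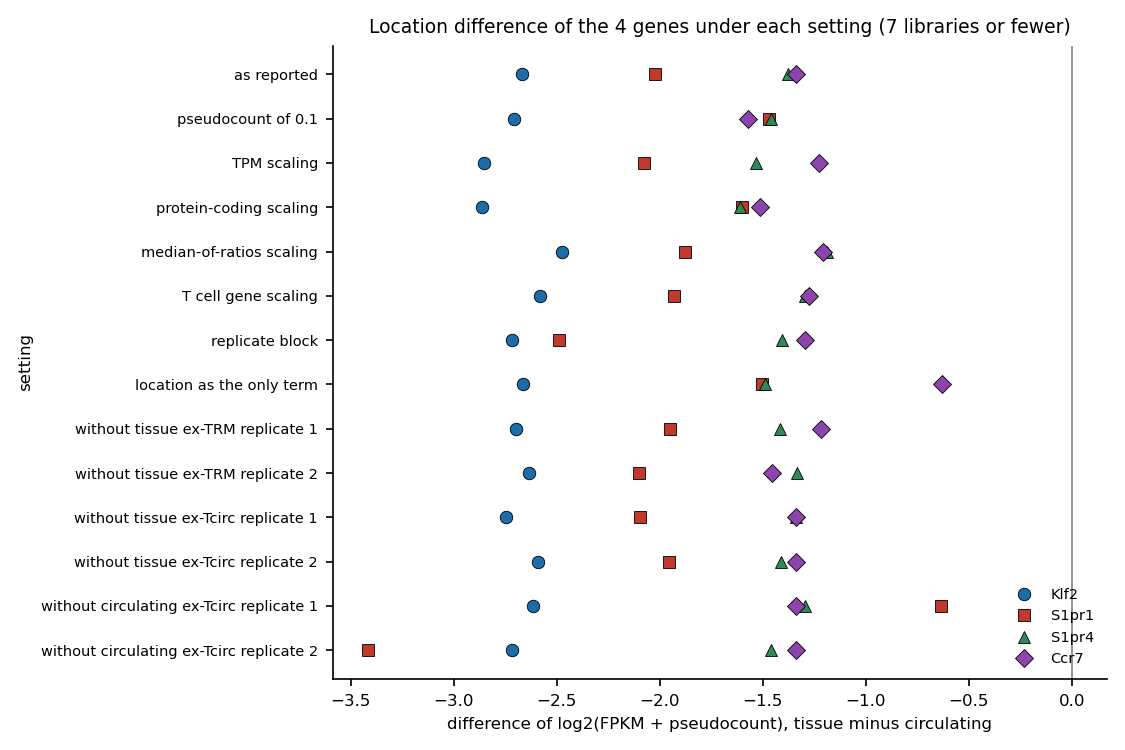
Difference in log2(FPKM + pseudocount), tissue minus circulating, of the 4 genes (symbols) under each setting with 7 libraries or fewer (rows). Klf2 stays between -2.86 and -2.47, S1pr4 is lower in tissue under each setting shown, and S1pr1 ranges from -3.42 to -0.63 with the circulating ex-Tcirc libraries.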

How the data were processed

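RNA-seq of sorted CD4+ T cells was analysed in 7 of 8 libraries. Per the labels' protocols, 3000 to 50000 cells were sorted per population, and strand-specific libraries were sequenced as 50-cycle pairs. The authors deposited FPKM values, 1 per gene and library, per the file headers. Build mm10, HISAT2 2.2.1 and StringTie 3.0.1 are among the entries of the submitters' processing notes, which give tools no role. The annotation, the strand setting and the read depth are not given in any source used here. A gene with few fragments can drop to 0, and zeros repeated in a group lower its SE and p, so a 0 was not read as absence.

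Values of repeated gene names were summed, and no pair of libraries was identical. log2(FPKM + 1) of genes with a mean of at least 20 FPKM was fitted to group means with limma 3.58.1 (R 4.3.3), an intensity trend and Benjamini-Hochberg adjustment, with calls at an adjusted p under 0.05. This scale understates changes of low genes. The fit was also run on simulated data without the uneven detection between libraries. That run does not bear on calls among genes with zeros. A group of 1 library is assumed to vary like the others. Replicates are not stated to be separate animals, so p-values measure the spread between libraries, which may be technical. The 4 genes and all lists were chosen with earlier results of these data known. Named genes were the members, listed KLF, S1P receptor and homing genes with a mean of at least 5 FPKM, called list genes and those with the highest or lowest correlations. Some genes that this rule names are not reported here. Other list genes named as examples were chosen after their values were seen. RefSeq (GRCm38.p6) gave positions and promoters. Alternatives changed the minimum, the pseudocount, the scaling, repeated names, the libraries in the fit, the replicate block and library weights.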

Additional observations from a re-analysis of the deposited data

Results flagged for a closer look

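Sgpp1, an S1P phosphatase gene, had a location difference of -0.096 within ex-TRM and 1.84 within ex-Tcirc on the log2 scale, with every library on opposite sides. Ahr, a transcription factor of barrier-tissue lymphocytes, had -0.62 within ex-TRM and 3.12 within ex-Tcirc in the same way. Both genes lay below the minimum mean of 20 FPKM. At the lower minimum of 1 FPKM in 2 libraries, limma called the interaction of location and origin for Ahr and not for Sgpp1. That fit called many genes, as given below, and had 1 circulating ex-TRM library. Ahr was at 0 in both circulating ex-Tcirc libraries while Sgpp1 was at 0 in one. Circulating ex-TRM replicate 1, which was left out of all comparisons, listed Sgpp2, another S1P phosphatase gene, at 404 FPKM, against at most 2.43 FPKM in the other libraries.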

How the results depend on the processing

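The 6 counts of called genes moved with most settings. For tissue minus circulating, 195 genes became 2259, 895 and 24 at mean minimums of 5, 10 and 50 FPKM, 3618 at 1 FPKM in 2 libraries, 4345 with no filter, 0 for genes above 0 in all 7 libraries (532 at an unadjusted p under 0.05), 34 with TPM, 3109 with protein-coding and 69 with median-of-ratios scaling, 0 with all 8 libraries, the replicate block or library weights (limma, 253, 369 and 366 at an unadjusted p under 0.05) and 1 with location as the only term. Within ex-Tcirc, 242 became 2640, 1006 and 35 at those minimums, 5984 at 1 FPKM in 2 libraries, 4981 with no filter, 105 with TPM and 3515 with protein-coding scaling, 158 with the replicate block, and 0 for genes above 0 in all 7 libraries, with all 8 libraries, library weights or the 4 ex-Tcirc libraries only (858, 124, 270 and 283 at an unadjusted p under 0.05, limma). For circulating ex-TRM minus circulating ex-Tcirc, 176 became 2243, 854 and 19, then 4400, 5128, 22 with TPM and 3048 with protein-coding scaling, and 0 for genes above 0 in all 7 libraries, with all 8 libraries, the block or weights (334, 35, 281 and 205 at an unadjusted p under 0.05, limma). The interaction count of 4 became 2013 and 774 at minimums of 5 and 10 FPKM, 2099, 3165, 179 with a pseudocount of 0.1, 2916 with protein-coding scaling, 2 with T cell gene scaling, and 0 for genes above 0 in all 7 libraries, with median-of-ratios scaling, all 8 libraries, the block or weights (172, 204, 6, 260 and 201 at an unadjusted p under 0.05, limma). Within ex-TRM, 0 (87 at an unadjusted p under 0.05, limma) became 854 with no filter and 86 with weights, and for tissue ex-TRM minus tissue ex-Tcirc 0 became 584 with no filter. The causes were not tested.

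Leaving out 1 library gave 0 to 1860 calls between locations, 0 to 60 within ex-TRM, 0 to 1969 within ex-Tcirc, 0 to 1804 between circulating origins, 0 to 1704 for the interaction and 0 between tissue origins. The count between locations was 0 without any one tissue library, 1860 without circulating ex-Tcirc replicate 1 and 1172 without replicate 2. Without circulating ex-TRM replicate 2 the comparisons that need that group could not be made.

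Klf2 differed between locations by -2.86 with TPM scaling, -2.86 with protein-coding scaling, -2.47 with median-of-ratios scaling, -2.72 with the replicate block and -0.80 with all 8 libraries. S1pr4 differed by -1.61 with protein-coding scaling, -1.19 with median-of-ratios scaling and -0.29 with all 8 libraries. Ccr7, at 0 in most libraries, had -1.34, which became -1.57 with a pseudocount of 0.1, -0.28 with all 8 libraries and -0.63 with location as the only term, and -1.46 to -1.22 leaving out 1 library. S1pr1 ranged from -3.42 to -0.63, Klf2 from -2.75 to -2.59 and S1pr4 from -1.46 to -1.30 in the same way. With all 8 libraries the sign turned for Klf2 (1.21) and S1pr4 (1.26) within ex-TRM and for Itga4 (0.12), Selplg (0.84) and Itgb7 (1.01) between locations, since the added library lists them at 0. With T cell gene scaling S1pr4 between tissue origins turned to -0.0476, from 0.25. Differences between replicates 1 and 2 correlated between groups at -0.0118, -0.0853 and -0.0254, with circulating ex-TRM left out. No pairing by number was seen in them. They cannot settle whether same-numbered libraries share animals or pools, since the circulating ex-Tcirc replicates also differ in detection. With the replicate block the adjusted p of Cxcr6 between locations was 0.165 (limma). The smallest group is 1 library, and read depth, which is not given, limits all values near 0.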
